A study of Mus musculus with 3 samples.

Results

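The 5 chemokine genes Ccl3, Ccl4, Ccl5, Xcl1 and Cxcl10, which activated CD8 T cells can express, were followed across 3 arrays of CD8 T cells from mouse MLN, the mesenteric lymph nodes. All probe sets annotated with 1 of these 5 symbols alone were taken. Each gene had 1 such probe set, so 5 of the 45101 probe sets and 5 of 18194 named genes were described. The rule used no measured values, although the genes were picked with earlier results of these data known.

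Both VILLIN-HA/CL4-TCR and the Villin-HA + CL4-TCR group combine T cells carrying the CL4 T cell receptor with hemagglutinin (HA) of influenza virus driven by the villin promoter, which is active in the gut epithelium. The CL4-TCR group carries the receptor without HA. That transgenic receptor, which makes CD8 T cells recognise HA, is shared by all 3 groups. Each group holds 1 array. The submitters describe the populations as ordinary, as activated in the animal and as regulatory cells formed in the animal, but the sample labels do not assign the last pair to the HA arrays. From general knowledge of the study rather than its labels, the suppressive cells were those of mice bearing both transgenes. Each array is named by its group from here on. Strain, age, number of animals and the purity of the cells were not given in the sources used here.

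Chemokines are small secreted proteins that steer leukocytes through G protein-coupled receptors. Ccl3, Ccl4 and Ccl5 encode CC chemokines that draw in T cells and monocytes, and CD8 T cells can release them within hours of meeting antigen or, for CCL5, from stores. Xcl1 encodes lymphotactin, whose receptor XCR1 marks the dendritic cells that present antigen to CD8 T cells. Cxcl10 encodes an interferon-induced chemokine that attracts activated T cells through CXCR3, and it is made by myeloid, stromal and epithelial cells as well as by some T cells.

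All values below are MAS5 signals, a linear brightness per probe set that the authors scaled on each array. Signals under 31.7, the median of all values, were raised to that floor. A gene counted as measured where at least 1 of the arrays compared exceeded the floor, and it was called higher or lower at a fold of at least 2, a log2 difference of 1. Where the lower signal lay at or under the floor, the fold is given as a lower bound. With 1 array per group there was no replicate and no test, so every difference is one between arrays, and array, batch and group cannot be told apart. The disagreement between probe sets of 1 gene, given as a pooled SD of log2 differences, was the only error that could be estimated. It was pooled over genes with several probe sets on the same pair of arrays, so it does not measure variation between arrays or animals. This SD came to 0.43 for VILLIN-HA/CL4-TCR over CL4-TCR, 0.65 for Villin-HA + CL4-TCR over CL4-TCR, and 0.61 for VILLIN-HA/CL4-TCR over Villin-HA + CL4-TCR. Signals of different probe sets are not comparable, so the 5 genes are not ranked against each other.

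The arrays differed beyond the chemokines. Cd8a encodes part of the CD8 co-receptor, and its 5 probe sets spanned log2 differences from CL4-TCR of -0.06 to 0.27 in VILLIN-HA/CL4-TCR. In Villin-HA + CL4-TCR they spanned -0.01 to 2.01. Its brightest probe set gave signals of 2893 in VILLIN-HA/CL4-TCR, 3149 in Villin-HA + CL4-TCR and 2714 in CL4-TCR. Cd4 lay under the floor on all 3 arrays, and Foxp3, also on the list of CD4 T cell markers, had 38.2, 86.4 and 29.6. The ratio of 3′ to 5′ signal of the Gapdh control probe sets, a sign of RNA or labelling quality, was 46.2, 3.35 and 18.4 in the same order, while that of the beta-actin control probe sets was 2.46, 1.80 and 1.98. Xist, the RNA of the inactive X chromosome in females, had 2.5, 1339 and 5442.5, and the Y-linked gene Eif2s3y had 1496, 746.9 and 13.4. With 1 array each, RNA quality and the sex of the mice cannot be told apart from the group.

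In VILLIN-HA/CL4-TCR Xcl1, Ccl5, Ccl4 and Ccl3 were higher than in CL4-TCR and Cxcl10 was not. In Villin-HA + CL4-TCR Cxcl10, Ccl5, Xcl1 and Ccl3 were higher and Ccl4 was not. Thus 4 of 5 were higher and none lower in each comparison, set beside 7.43% of 11260 measured genes higher and 6.63% lower in VILLIN-HA/CL4-TCR and 11.9% of 12196 higher and 9.53% lower in Villin-HA + CL4-TCR. After each array was scaled to its median signal, 38.2% of the called genes of the second comparison were higher, after scaling to housekeeping genes 43.1%, and as deposited 55.6%. The median log2 difference of the 5 genes was 1.86 against -0.04 over all measured genes in the first comparison and 3.22 against 0.06 in the second. Both comparisons share CL4-TCR, and Ccl3 and Xcl1 were measured in them only through the HA arrays, so these counts are a description. In RNA of a whole sample, fewer cells of a type and less RNA per cell cannot be told apart.

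**Figure D1:**
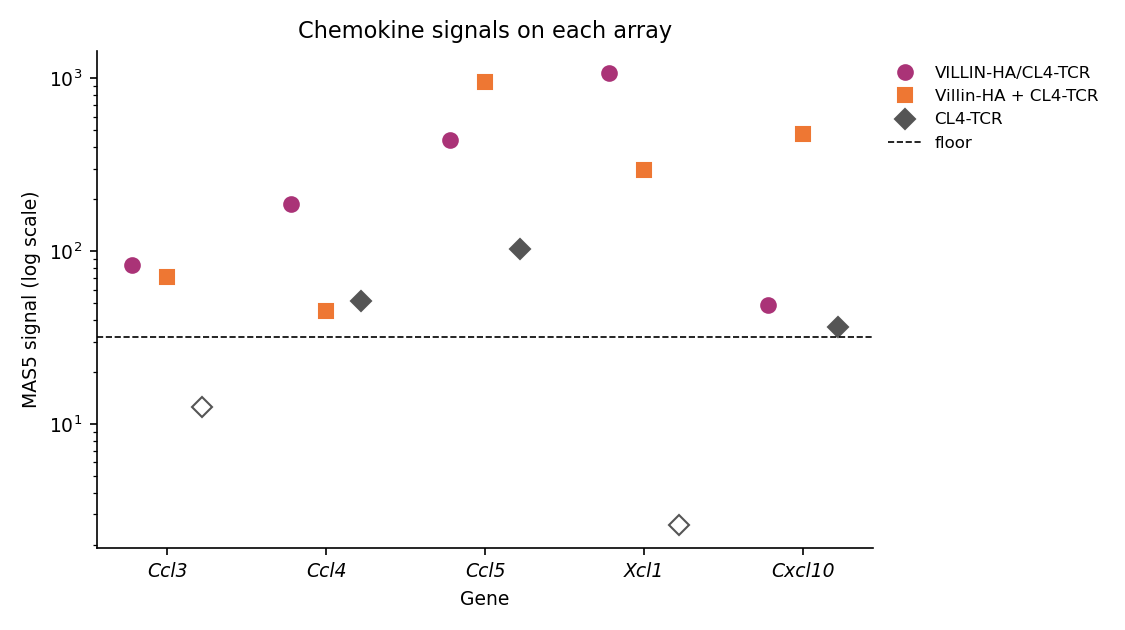
MAS5 signal (log scale) of the 5 chemokine genes on the VILLIN-HA/CL4-TCR (circles), Villin-HA + CL4-TCR (squares) and CL4-TCR (diamonds) arrays, 1 point per array. The dashed line is the floor of 31.7, and open symbols lie under it. Xcl1 lies at 1067.7 in VILLIN-HA/CL4-TCR and at 2.6 in CL4-TCR, and Cxcl10 stands out in Villin-HA + CL4-TCR at 478.9.

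The promoters of Xcl1 and Cxcl10 are shown because Xcl1 and Cxcl10 differed in opposite directions between the HA arrays. Ccl4 and Ccl5 did so too, but the promoter sequences used held no entry for them. Both are from RefSeq, build GRCm38.p6, and run 5′ to 3′ on the gene's strand from 250 bases before its start to 50 bases after it. Xcl1 covers chr1:164935473-164935772 on the minus strand and Cxcl10 covers chr5:92348840-92349139, also on the minus strand. Capitals mark matches to the motifs described after the sequences.
Xcl1: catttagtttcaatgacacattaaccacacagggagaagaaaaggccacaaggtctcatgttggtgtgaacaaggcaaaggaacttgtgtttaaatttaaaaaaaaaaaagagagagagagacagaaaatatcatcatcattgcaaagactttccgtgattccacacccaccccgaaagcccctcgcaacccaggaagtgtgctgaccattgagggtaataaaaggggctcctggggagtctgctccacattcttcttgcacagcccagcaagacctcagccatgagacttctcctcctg
Cxcl10: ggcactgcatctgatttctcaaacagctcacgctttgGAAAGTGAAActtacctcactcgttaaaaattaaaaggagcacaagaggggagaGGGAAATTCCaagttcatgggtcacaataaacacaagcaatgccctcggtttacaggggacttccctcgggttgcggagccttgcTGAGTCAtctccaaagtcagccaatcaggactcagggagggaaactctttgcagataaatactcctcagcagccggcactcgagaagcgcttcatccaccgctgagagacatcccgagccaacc

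On both strands 5 motifs were searched: the interferon-stimulated response element as GAAA and GAAA with any 2 bases between, an NF-kappaB motif as GGGA and TTCC with any 2 bases between, the AP-1 motif as TGANTCA, the cyclic AMP response element as TGACGTCA and the TATA motif as TATAAA. Cxcl10 held the first as GAAAGTGAAA from position -213 to -204, the second as GGGAAATTCC from -159 to -150 and the third as TGAGTCA from -74 to -68, counted from the gene's start. These matches do not overlap. Of 32851 promoters of that length, 3.44% held the interferon element, 1.47% the NF-kappaB motif and 7.81% the AP-1 motif, and the other two were held by 1.79% and 13.6%. None of the 5 strings was found in the window of Xcl1 or in that of Ccl3, the only other chemokine gene followed here with a promoter sequence. A match is a description of letters and not a binding site.

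Xcl1 had the highest signal of its probe set in VILLIN-HA/CL4-TCR, at 1067.7, against 295.3 in Villin-HA + CL4-TCR and 2.6 in CL4-TCR. Both HA arrays lay far above the floor and CL4-TCR far under it. The fold over CL4-TCR was at least 33.7 (log2 5.07) in VILLIN-HA/CL4-TCR and at least 9.32 (log2 3.22) in Villin-HA + CL4-TCR. Between the HA arrays, both measured, Xcl1 was 3.62-fold higher in VILLIN-HA/CL4-TCR (log2 1.85), which ranked 69 from the top of 9683 genes measured on both. Across all settings tried, that log2 difference stayed between 1.77 and 2.12. Its neighbours on chromosome 1 did not share this pattern: Dpt, a matrix protein gene on one side, had signals of 4.5, 47.2 and 19.5 in VILLIN-HA/CL4-TCR, Villin-HA + CL4-TCR and CL4-TCR, and Tbx19, a pituitary T-box factor gene on the other, had 24.7, 49.5 and 40.5.

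Ccl5 was above the floor on every array, with 440.5 in VILLIN-HA/CL4-TCR, 957.2 in Villin-HA + CL4-TCR and 102.5 in CL4-TCR. It was 4.30-fold higher than CL4-TCR in VILLIN-HA/CL4-TCR (log2 2.10) and 9.34-fold higher in Villin-HA + CL4-TCR (log2 3.22). These differences ranked 115 of 9353 and 46 of 9497 genes measured on both arrays. Ccl5 was thus called against CL4-TCR with no bound on either side. Between the HA arrays it was 2.17-fold lower in VILLIN-HA/CL4-TCR (log2 -1.12), close to the threshold, and scaling the arrays to their median signal brought the log2 difference to -0.86, short of 2-fold.

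Ccl4 was high on 1 array only, with a signal of 187 in VILLIN-HA/CL4-TCR, 45 in Villin-HA + CL4-TCR and 51.4 in CL4-TCR. It was 3.64-fold higher than CL4-TCR in VILLIN-HA/CL4-TCR (log2 1.86) and 1.14-fold lower in Villin-HA + CL4-TCR (log2 -0.19), where the size is within the probe-set SD of 0.65. The direct difference between the HA arrays was 4.16-fold (log2 2.06), which ranked 45 from the top of 9683. The signals of 45 and 51.4 lie just above the floor, where measured probe sets of 1 gene disagreed more than at high signals: for Villin-HA + CL4-TCR over CL4-TCR the pooled SD was 0.68 for mean signals from 31.7 to 100 and also from 100 to 300, against 0.52 for means above 300.

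Ccl3 was near the floor wherever it was seen, at 83.3 in VILLIN-HA/CL4-TCR and 70.8 in Villin-HA + CL4-TCR, against 12.5, under the floor, in CL4-TCR. The bounds were at least 2.63-fold and at least 2.23-fold (log2 1.39 and 1.16). With the floor at the 65th percentile, a signal of 68.6, they shrank to at least 0.28 and 0.05 on the log2 scale and Ccl3 was no longer called in either comparison. The HA arrays differed by a log2 of 0.23, within the probe-set SD of 0.61. Ccl3 and Ccl4 lie next to each other on chromosome 11 and encode closely related proteins. Beside each other, Ccl3 was higher on both HA arrays and Ccl4 in VILLIN-HA/CL4-TCR only.

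Cxcl10 had a signal of 48.9 in VILLIN-HA/CL4-TCR, 478.9 in Villin-HA + CL4-TCR and 36.5 in CL4-TCR. The Villin-HA + CL4-TCR array stood alone, and the other two lay just above the floor. Against CL4-TCR it was 1.34-fold higher in VILLIN-HA/CL4-TCR (log2 0.42), within the probe-set SD of 0.43, and 13.1-fold higher in Villin-HA + CL4-TCR (log2 3.71), which ranked 25 of 9497. The direct difference between the HA arrays was 9.79-fold, lower in VILLIN-HA/CL4-TCR (log2 -3.29), and ranked 27 from the bottom of 9683. The related interferon-induced chemokine genes did not share this level: Cxcl9, which lies near Cxcl10 on chromosome 5, had 17.9, 30.3 and 17.4 in VILLIN-HA/CL4-TCR, Villin-HA + CL4-TCR and CL4-TCR, and Cxcl11 had 13.7, 16.5 and 2.5, all under the floor.

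Compared directly, the HA arrays divided the 5 genes. Xcl1 and Ccl4 were higher in VILLIN-HA/CL4-TCR, Cxcl10 and Ccl5 were lower there, and Ccl3 was within 2-fold. Over all genes measured in this comparison, 6.14% of 12081 were higher and 8.95% lower in VILLIN-HA/CL4-TCR. Of the genes called, 40.7% were thus higher, and 67.3% after scaling to the median signal. The median log2 difference of the 5 genes was 0.23, against -0.06 over all genes.

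**Figure D2:**
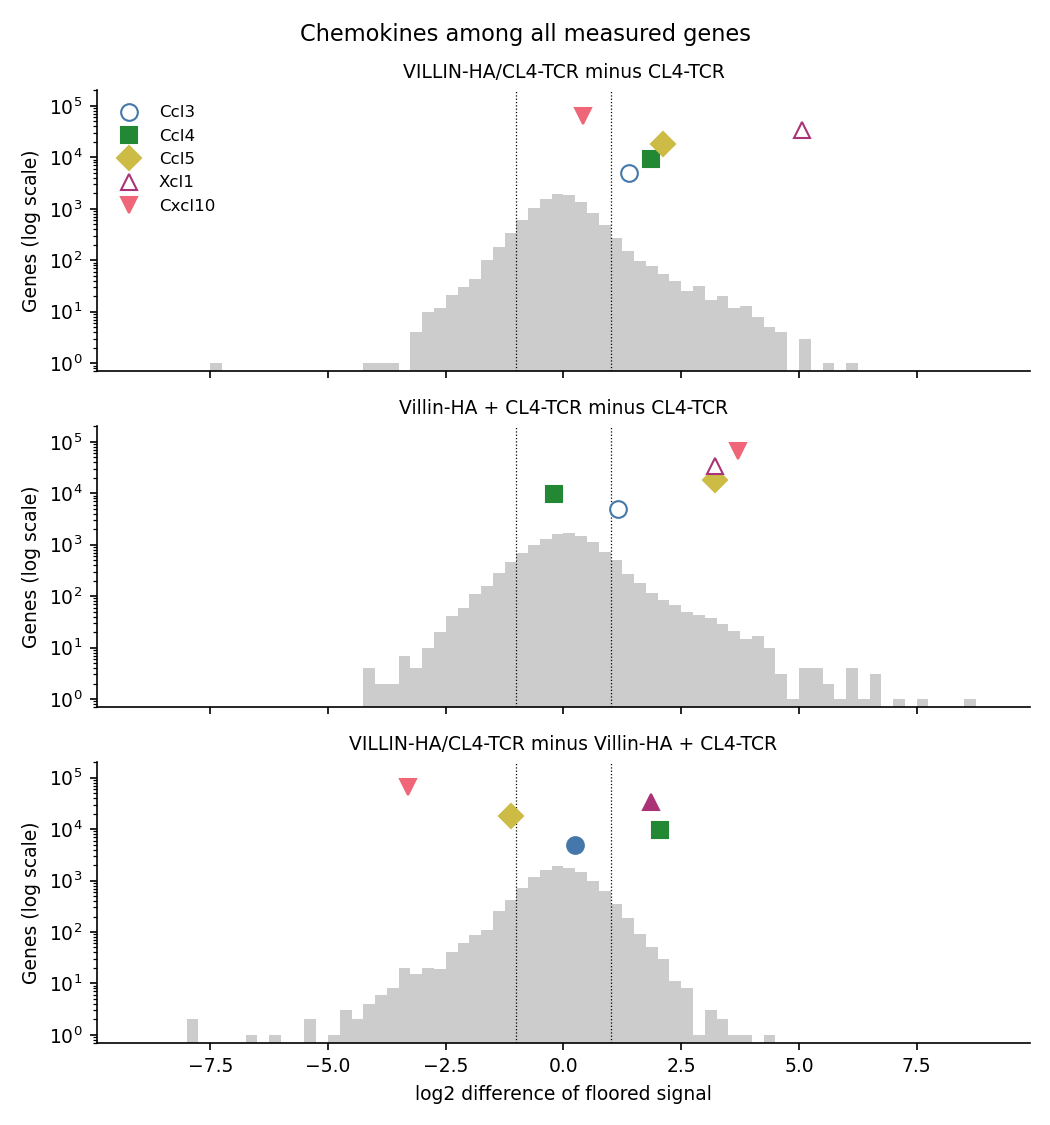
Number of measured genes (log scale) by log2 difference in each of the 3 comparisons (grey bars), with the 5 chemokine genes as coloured symbols whose height has no meaning. Open symbols are lower bounds and dotted lines mark 2-fold. In the lowest panel Xcl1 and Ccl4 lie to the right at 1.85 and 2.06 and Cxcl10 to the left at -3.29.

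The cluster on chromosome 11 that holds Ccl5, Ccl3 and Ccl4 also holds Ccl9 and Ccl6 between Ccl5 and Ccl3, both genes of myeloid chemokines. Ccl9 had signals of 29.6, 25.6 and 1.5 in VILLIN-HA/CL4-TCR, Villin-HA + CL4-TCR and CL4-TCR, under the floor on each. Ccl6 had 20.2, 41.4 and 21.3, at least 1.31-fold higher in Villin-HA + CL4-TCR than in CL4-TCR. Ccl9 was thus not measured, and Ccl6 was not called. On the other side of Ccl4, past Wfdc17, the whey acidic protein family gene Wfdc18 had 40.2, 429.8 and 23.7.

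Among the other chemokine genes, most were under the floor. Of 30 named genes, 10 were measured between VILLIN-HA/CL4-TCR and CL4-TCR, with none higher and 1 lower (median -0.10), and 12 between Villin-HA + CL4-TCR and CL4-TCR, with 3 higher and 1 lower (median 0.47). Pf4, the platelet factor 4 gene, had a signal of 37.2 in VILLIN-HA/CL4-TCR, 203.4 in Villin-HA + CL4-TCR and 32.2 in CL4-TCR, 6.32-fold higher in the second comparison. Cxcl12, a chemokine of stromal cells, was at least 2.47-fold higher in Villin-HA + CL4-TCR by its brightest probe set, at 78.3 against 6.6 in CL4-TCR, and another probe set had a log2 difference of 0.45. The third was Ppbp, another platelet chemokine gene, at least 2.05-fold higher and named after its value was seen. Cx3cl1, which encodes fractalkine, was at least 2.12-fold lower on both HA arrays, at 17.5 and 13 against 67.3 in CL4-TCR, while another probe set had a log2 difference of 0.04 between VILLIN-HA/CL4-TCR and CL4-TCR.

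Of the receptors that these chemokines bind, Cxcr3, the receptor for CXCL10, had a signal of 334.9 in VILLIN-HA/CL4-TCR, 2753 in Villin-HA + CL4-TCR and 784.1 in CL4-TCR. It was 2.34-fold lower than CL4-TCR in VILLIN-HA/CL4-TCR and 3.51-fold higher in Villin-HA + CL4-TCR. Ccr1, a receptor of CCL3 and CCL5, Ccr3, an eosinophil receptor of CCL5, and Xcr1, the XCL1 receptor, lay under the floor on every array, with highest signals of 30.4, 13.4 and 12.7. The scavenger receptor Ackr2 was above it in Villin-HA + CL4-TCR alone, at 52.1, and Ackr1, an atypical receptor that binds many chemokines, had 44.3, 42.4 and 42.6. Of 10 and 9 other measured chemokine receptor genes, 2 were higher and 2 lower in VILLIN-HA/CL4-TCR and 4 higher and none lower in Villin-HA + CL4-TCR. Ccr2, a receptor of monocytes and effector T cells, was at least 9.74-fold and Ccrl2, an atypical receptor, at least 8.39-fold higher in Villin-HA + CL4-TCR, while Cxcr4, the receptor for CXCL12, was 7.52-fold lower in VILLIN-HA/CL4-TCR. By its 4 probe sets, Ccr2 spanned log2 differences of 0.97 to 3.28 in Villin-HA + CL4-TCR.

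The secreted products that CD8 effector cells release beside chemokines separated the HA arrays too. In VILLIN-HA/CL4-TCR 2 of 9 measured genes were higher and 1 lower, with a median log2 difference of 0.67, and in Villin-HA + CL4-TCR 7 of 10 were higher and 1 lower, with a median of 2.00. In CL4-TCR 5 of the 11 listed genes lay above the floor, and 6 of the 10 differences in Villin-HA + CL4-TCR are bounds. Genes measured only through an HA array could not be lower there, so these counts against CL4-TCR are a description. Ifng, which encodes interferon gamma, had a signal of 58.7 in VILLIN-HA/CL4-TCR, 631.5 in Villin-HA + CL4-TCR and 4.2 in CL4-TCR. Gzma and Gzmb, granzyme genes, had 83.3 and 49.3 in VILLIN-HA/CL4-TCR, 18077 and 12078 in Villin-HA + CL4-TCR and 90.1 and 14.6 in CL4-TCR. These 3 genes were highest in Villin-HA + CL4-TCR, as Cxcl10 and Ccl5 were, whereas Xcl1 and Ccl4 were highest in VILLIN-HA/CL4-TCR. Between the HA arrays 6 of 10 measured genes of this list were lower in VILLIN-HA/CL4-TCR and 2 higher, Tnfsf10 and Lta. Tnfsf10 had 299.7, 139.7 and 148.1 in VILLIN-HA/CL4-TCR, Villin-HA + CL4-TCR and CL4-TCR, and Lta had 94.6, 16.8 and 50.9. Tnf had 110.8, 104.2 and 43, and the perforin gene Prf1, lower on both HA arrays, had 98.9, 207.9 and 525.

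Interferons induce Cxcl10 through receptors, kinases and transcription factors, and 12 genes of that route were measured. In each comparison with CL4-TCR 1 was higher and 1 lower, with medians of -0.32 and -0.16. Ifng was at least 19.9-fold higher in Villin-HA + CL4-TCR, and Jak2, a kinase of the interferon gamma receptor, was 2.12-fold higher in VILLIN-HA/CL4-TCR. Ifnar2, a chain of the type I interferon receptor, was 4.83-fold lower in Villin-HA + CL4-TCR by its brightest probe set, while its 3 probe sets spanned log2 differences of -2.27 to 0.28. Of the genes that interferons induce, none of 13 was higher and 2 were lower in VILLIN-HA/CL4-TCR (median -0.78), and 7 of 14 were higher and none lower in Villin-HA + CL4-TCR (median 1.08). Ifit3, Mx1 and Rsad2, antiviral genes, were 11.5-fold, 10.1-fold and 4.89-fold higher in Villin-HA + CL4-TCR, and their log2 differences in VILLIN-HA/CL4-TCR were -0.15, 0.51 and 0.13. Probe sets of Rsad2 ranged from 0.53 to 2.29 in Villin-HA + CL4-TCR. The other 7 measured genes of this list were within 2-fold there. Among them Gbp2, Irgm1 and Igtp had log2 differences of -0.66, -0.66 and -0.02, and the probe sets of Gbp2 ranged from -0.66 to 0.58.

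Among transcription factors that act on chemokine genes, 6 of 20 were higher and 3 lower in VILLIN-HA/CL4-TCR (median 0.33), and 13 of 22 were higher and 2 lower in Villin-HA + CL4-TCR (median 1.31). Fos, a subunit of AP-1, had a signal of 987.5 in VILLIN-HA/CL4-TCR, 4555 in Villin-HA + CL4-TCR and 64.8 in CL4-TCR. Jun, its partner, had 22.4, 450 and 27.9. Irf4, a factor induced by T cell receptor signals, went the other way between the HA arrays, with 886.9 in VILLIN-HA/CL4-TCR, 338.8 in Villin-HA + CL4-TCR and 49.6 in CL4-TCR, the order of Xcl1. By its second probe set Irf4 had a log2 difference of 0.38 between Villin-HA + CL4-TCR and CL4-TCR.

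Genes that act on chemokine transcripts and proteins after transcription are given next. Over all measured genes, 14.1% were called higher or lower in VILLIN-HA/CL4-TCR and 21.4% in Villin-HA + CL4-TCR. With so few genes listed, the counts here cannot be set apart from those shares. Of 7 decay factors of AU-rich mRNAs, none was called in VILLIN-HA/CL4-TCR and 1 was lower in Villin-HA + CL4-TCR, Rc3h2, which encodes a relative of roquin (2.12-fold, with probe sets from -1.59 to 0.14). Zc3h12a, the regnase-1 gene, had log2 differences of 0.90 in VILLIN-HA/CL4-TCR and 0.86 in Villin-HA + CL4-TCR, and Zfp36, the tristetraprolin gene, had -0.79 and 0.68. Srgn, which encodes the granule proteoglycan serglycin, had signals of 5239, 6021 and 3245 in VILLIN-HA/CL4-TCR, Villin-HA + CL4-TCR and CL4-TCR, and the lysosomal membrane gene Lamp1 had 1196, 1180 and 1580. Dpp4, the CD26 protease that trims CXCL10, was 2.62-fold higher in Villin-HA + CL4-TCR by its brightest probe set, and its 4 probe sets ranged from -2.04 to 1.39.

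**Figure D3:**
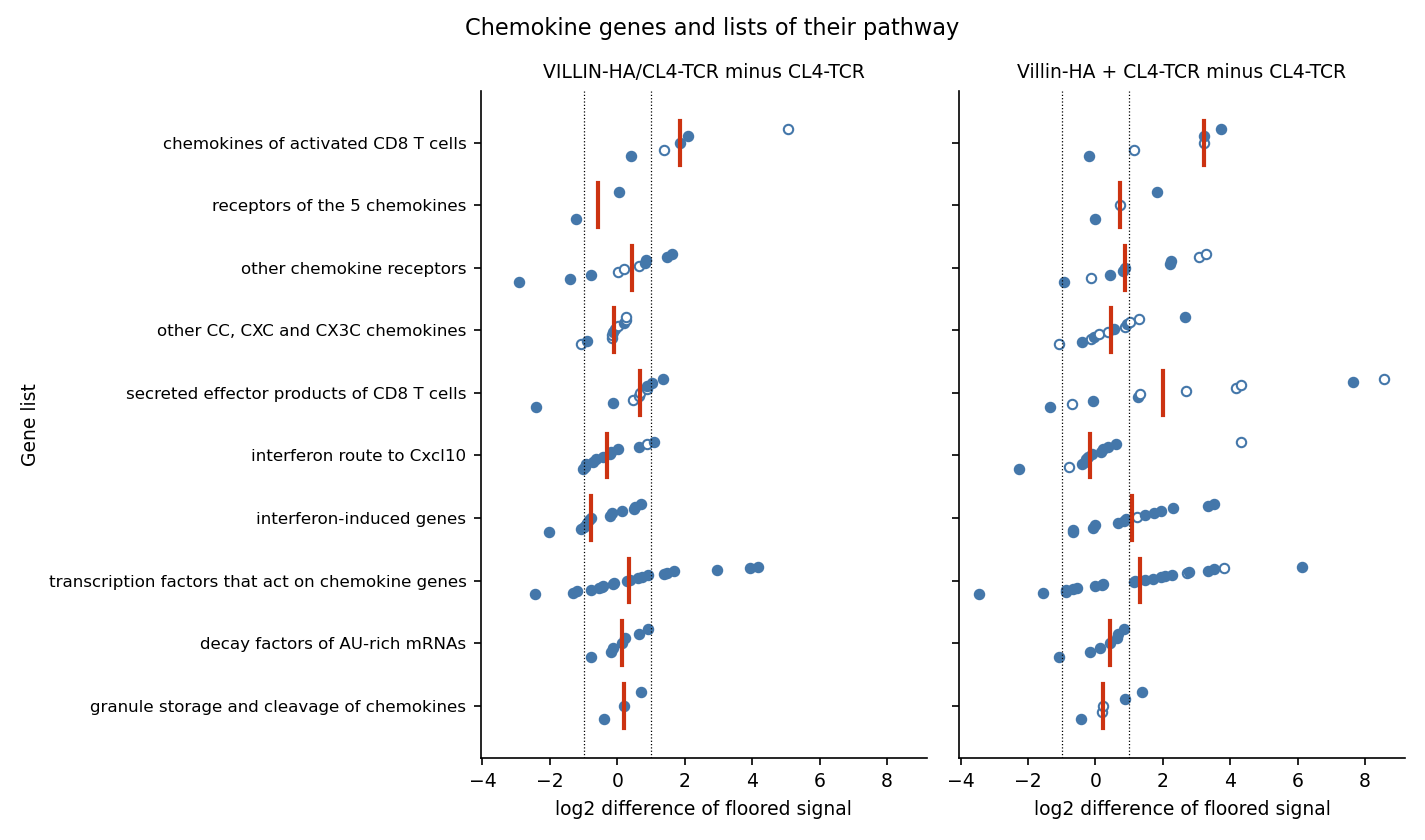
log2 difference from CL4-TCR of each measured gene in 10 lists (rows) in VILLIN-HA/CL4-TCR (left) and Villin-HA + CL4-TCR (right). Open circles are lower bounds, red bars are list medians and dotted lines mark 2-fold. The chemokine medians are 1.86 and 3.22, and interferon-induced genes have medians of -0.78 and 1.08.

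Since Cxcl10 and the CC chemokines are also made by other cells, markers of those cells are given beside them. Myeloid and dendritic markers were higher than in CL4-TCR for 6 of 13 measured genes in VILLIN-HA/CL4-TCR and 7 of 13 in Villin-HA + CL4-TCR. The summed signal of the 18 named markers was 2603 in VILLIN-HA/CL4-TCR, 2388 in Villin-HA + CL4-TCR and 793.3 in CL4-TCR. Lyz2, a macrophage lysozyme gene, had 817.3, 312.2 and 84.5, and Itgax, a dendritic cell integrin gene, had 43.5, 430.7 and 38.9 in the same order. Csf1r, the macrophage growth factor receptor gene, had 384.1, 125 and 40.9. By its 3 probe sets, Csf1r spanned log2 differences of 0.33 to 3.23 between VILLIN-HA/CL4-TCR and CL4-TCR. The macrophage gene Cd68 had 49.1, 106.3 and 39.5, so single markers were highest on different HA arrays. No marker of this list was at 0. The part of such cells in the differences of the chemokines was not tested.

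Neutrophil, stromal and skeletal muscle markers were high in Villin-HA + CL4-TCR, as Cxcl10 was. Of neutrophil markers, 6 of 7 measured were higher there than in CL4-TCR, with sums over 8 genes of 159.1 in VILLIN-HA/CL4-TCR, 1871 in Villin-HA + CL4-TCR and 155.3 in CL4-TCR, led by S100a8 (738.7 in Villin-HA + CL4-TCR). Stroma and endothelium markers were higher for 5 of 6, with sums over 10 genes of 147.5, 1109 and 135.5, among them Col1a2, a collagen gene (369.9), and Pecam1, an endothelial adhesion gene (47.5). Muscle markers were higher for 8 of 8, with sums of 179.4, 5640 and 179.7, among them the myosin gene Myh1 (2100). In CL4-TCR 0 of the 8 neutrophil markers, 1 of the 10 stromal and 1 of the 8 muscle markers lay above the floor, so nearly all of these genes were measured only through the Villin-HA + CL4-TCR array and their counts are a description. No marker of these 3 lists was at 0. The part of such cells in the difference of Cxcl10 and Ccl5 was not tested.

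Markers of other lymphocytes and of epithelium are given next by list. Over all measured genes, 14.1% were called higher or lower in VILLIN-HA/CL4-TCR and 21.4% in Villin-HA + CL4-TCR. The lists hold few measured genes, so their counts are a description beside these shares. Ncr1, an NK cell receptor gene, had 24.8, 28 and 3.9 in VILLIN-HA/CL4-TCR, Villin-HA + CL4-TCR and CL4-TCR, under the floor on each. Of the NK list, 1 of 3 measured genes was higher and 1 lower in VILLIN-HA/CL4-TCR and 2 of 4 higher and 1 lower in Villin-HA + CL4-TCR, with sums over 7 genes of 386.6, 18376 and 1156. This list shares Gzma with CD8 effector cells, which makes up most of the sum in Villin-HA + CL4-TCR. Eomes, a T-box factor gene of NK and CD8 T cells, was 5.38-fold lower than CL4-TCR in VILLIN-HA/CL4-TCR and 10.9-fold lower in Villin-HA + CL4-TCR. B cell markers had 1 of 5 and 1 of 4 higher and none lower, with sums over 7 genes of 3152, 2293 and 3271. The epithelial marker Epcam had 48.9, 70.9 and 74.8, and none of its list was called. Of the CD4 T cell list, none of 2 measured genes was called in VILLIN-HA/CL4-TCR. In Villin-HA + CL4-TCR 1 of 2 was higher, Foxp3, at least 2.73-fold. For CD8 identity, 2 of 12 genes were called lower in VILLIN-HA/CL4-TCR and 0 of 12 were called in Villin-HA + CL4-TCR.

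**Figure D4:**
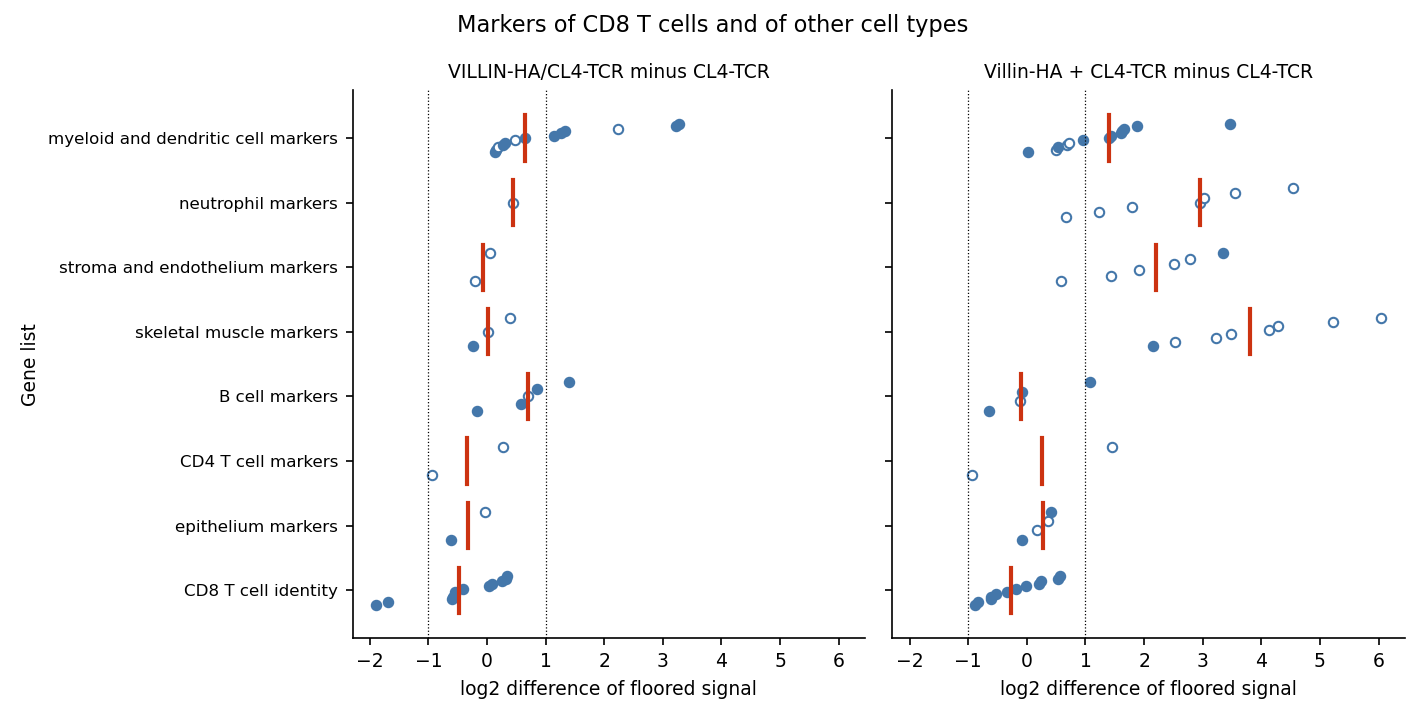
log2 difference from CL4-TCR of each measured marker in 8 lists (rows) in VILLIN-HA/CL4-TCR (left) and Villin-HA + CL4-TCR (right), with open circles for lower bounds, red bars for list medians and dotted lines at 2-fold. Neutrophil, stromal and muscle markers lie to the right in Villin-HA + CL4-TCR, with medians of 2.96, 2.21 and 3.81, and myeloid markers have medians of 0.65 and 1.40.

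For each chemokine the 3 genes with the most similar pair of log2 differences from CL4-TCR were found among 10940 genes measured in both comparisons, by Euclidean distance over 3 arrays. Those nearest to Ccl5 were Gadd45b, a stress-induced regulator (distance 0.07), Syce2, of the synaptonemal complex (0.14), and Aurka, a mitotic kinase (0.19), with no bounds among them. Nearest to Cxcl10 were Wfdc18 (0.09), the desaturase gene Scd1 (0.23) and Klrk1, the NKG2D receptor gene (0.35), each at or under the floor in CL4-TCR. Wfdc18 also lies in the chromosome 11 cluster beside Ccl4. Nearest to Xcl1 were Lyz1 (0.45), whose probe set can match other transcripts, Endod1 (0.61) and Ntn4, a netrin gene (0.97). Xcl1 and Ntn4 are at bounds in both comparisons, so these distances depend on the floor. Ccl4 had Chdh (0.22), Syt11 (0.30) and Kifc3 (0.34), with Chdh and Kifc3 at bounds, and Ccl3, itself at a bound, had Commd1 (0.01), Gsdme (0.02) and Slirp (0.02). With 3 arrays, nearness of pattern is a description of these arrays.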

How the data were processed

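Biotin-labelled cRNA from 6 µg of total RNA was hybridised to 3 one-colour arrays, 1 per group. The authors deposited MAS5 intensity, as the submitters' processing notes name it, on a linear scale from 0 to 19538, with a trimmed mean of 150 on each array. Background settings and detection calls were not used here. Of 45101 probe sets, 34958 had 1 gene symbol, 932 several and 9211 none. Symbols were updated by Entrez identifier to the GRCm38.p6 RefSeq table for 34754.

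Each gene was represented by its probe set with the highest mean signal. Differences were computed in Python 3.11.15 with pandas 2.3.3 and numpy 2.4.6, as log2 ratios over a floor at the median of all values. With 1 array per group no test was possible, and precision is limited by the number of arrays. The calling of differences was tested on simulated data. The genes changed there lay well above the floor, so calls near the floor were not tested. The members and the 22 gene lists (216 of 241 genes named) were chosen with earlier results of these data known. Beside the members, the receptors and the nearest patterns, the genes named were up to 3 per list with the largest difference and fixed defining markers. Further genes, such as Foxp3 and Prf1, were named after their values were seen. Alternatives changed the floor, scaling, probe set choice and fold threshold.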

Additional observations from a re-analysis of the deposited data

Results flagged for a closer look

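Relative to CL4-TCR, Ccl4 was higher on 1 HA array only, with log2 differences of 1.86 in VILLIN-HA/CL4-TCR and -0.19 in Villin-HA + CL4-TCR. The second value is within the disagreement between probe sets, and the difference itself was not tested, since each group holds 1 array.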

How the results depend on the processing

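Of 202 recomputed values of the chemokine counts, medians and single differences, none changed sign from a called value, and 188 stayed within the limits used (1.5 times for a count, the probe-set SD for a difference). Each of the 5 genes has 1 probe set, so the settings that changed probe set choice returned the main values by construction. These fixed values are among the 188, which therefore overstates how far the results were tested. A floor at the 65th percentile left Ccl4 and Cxcl10 unmeasured in 1 comparison each. Under it, the median between Villin-HA + CL4-TCR and CL4-TCR was 2.45. Under it, or at a fold threshold of 3, 3 of 5 genes were higher in each comparison with CL4-TCR, Ccl3 being the one lost, by construction. The count of chemokines lower in VILLIN-HA/CL4-TCR than in Villin-HA + CL4-TCR was 1 after scaling to the median signal and 1 at a fold threshold of 3, Cxcl10 in each case. The bound of Xcl1 moved with the floor, from at least 3.96 to at least 6.02 (log2) in VILLIN-HA/CL4-TCR and from at least 2.11 to at least 4.17 in Villin-HA + CL4-TCR, and Cxcl10 there lay between 2.80 and 3.71. Scaling to the median signal moved the median of all genes from 0.06 to -0.14 between Villin-HA + CL4-TCR and CL4-TCR and from -0.06 to 0.19 between the HA arrays, and the share of higher among called genes from 55.6% to 38.2% and from 40.7% to 67.3%. Scaling to housekeeping genes gave 43.1% between Villin-HA + CL4-TCR and CL4-TCR. Every other call of the 5 genes held under each scaling. No paired analysis was possible because each group has 1 array. Detection calls were not used, so signals near the floor are the least certain.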
